A study of Medicago truncatula with 9 samples.

Results

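2S albumins are small, sulfur-rich seed storage proteins of dicot seeds. Medtr2g083110 and Medtr2g083160 are 2 of the 3 loci that the deposited table describes as 2S albumin seed storage protein (conglutin, Ara h 6 allergen), out of 36695 loci in all. They were chosen by name with their values in all 3 genotypes known, so their levels and differences are given as a description and no test is read from them. The remaining locus, Medtr2g083130, was not chosen and is shown beside them. Each of the 3 loci had 1 transcript model.

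Transcripts of mature Medicago truncatula seeds were sequenced in wild-type R108 and in 2 lines with insertions of the Tnt1 retrotransposon, NF10440 (hsfa9-1) and NF13157 (hsfa9-2). Both lines are in the R108 background and each is represented by a single insertion line. Each genotype had 3 libraries, and a library was a pool of 50 seeds taken from different plants, with no treatment beyond drying and storage. Values are FPKM, fragment numbers corrected for transcript length and library size, so levels may be compared between loci but are relative to all other transcripts of the library. In whole seeds, fewer cells of a type and less RNA per cell cannot be told apart.

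A 2S albumin is made as a precursor on the endoplasmic reticulum, folded around conserved disulfide bonds, moved to the protein storage vacuole and cut there into a small and a large chain that stay linked by disulfides. With the 7S globulins (vicilins) and 11S globulins (legumins) it forms the protein reserve used by the seedling, and in legumes it carries much of the cysteine and methionine that the globulins lack. Several legume 2S albumins, such as Ara h 6 of peanut, are food allergens. HSFA9 is a heat stress transcription factor of seeds, best described in sunflower and Arabidopsis. No description in the table names HSFA9, so the mutated gene was not identified and the genotype labels were not checked against it.

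Libraries summed to between 922801 and 981285 FPKM and had between 16220 and 16606 loci at 1 FPKM or more. An estimate of relative depth gave 0.99 to 1.01 of their mean, but it was sought only in a narrow window around equal depth. It could therefore not show large differences, and absolute depth is unknown. Storage protein, oil body and LEA transcripts, which define mature seeds, were abundant in all 9 libraries. Replicate 1 of hsfa9-2 stood apart from the other mutant libraries: over 19 loci that were nearly absent in hsfa9-1, its median level was 5.06% of the R108 mean, while replicates 2 and 3 of hsfa9-2 had 0.596% and 0.673%. Without this library, 96 of 104 differences of the named loci that involve hsfa9-2 kept their side of the test's threshold. The 104 include those of both chosen loci, from which no test is read. Exceptions among the loci tested in the text are given beside them.

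Medtr2g083110 was the most abundant 2S albumin transcript in every library, and in hsfa9-1 it had 48.9% of its R108 mean. It stood at 3131, 3934 and 2944 FPKM in the R108 libraries. In hsfa9-1 it was listed at 1985, 1333 and 1575 FPKM. In hsfa9-2 it was listed at 3182, 3353 and 3128 FPKM. All hsfa9-1 libraries were below all R108 and all hsfa9-2 libraries, and R108 and hsfa9-2 overlapped. Among all loci it held ranks 21 to 26 by FPKM in R108, 41 to 72 in hsfa9-1 and 25 to 29 in hsfa9-2.

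R108 averaged 3336 ± 526 FPKM of Medtr2g083110, hsfa9-1 averaged 1631 ± 329.8 and hsfa9-2 averaged 3221 ± 118 (SD, n = 3 each). On the log2(FPKM + 1) scale used for all differences, hsfa9-1 was 1.04 below R108 (difference -1.04, SE 0.14), which is a ratio of means of 0.489. The hsfa9-2 mean differed from R108 by -0.04 (SE 0.14), a ratio of 0.966. Between the mutants the difference was 1.00 (SE 0.14), a ratio of 1.98 in favour of hsfa9-2. It was 1.01 without hsfa9-2 replicate 1, and the difference of hsfa9-2 from R108 was then -0.03.

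Medtr2g083160 was the least abundant of the 3 loci and followed another order, with its highest level in hsfa9-2. R108 libraries held 563, 630 and 553 FPKM. The hsfa9-1 libraries held 532, 306 and 516 FPKM. The hsfa9-2 libraries held 1355, 1188 and 1146 FPKM. The hsfa9-2 libraries lay above all 6 others, and the hsfa9-1 libraries lay just below R108, replicate 2 far more than replicates 1 and 3. By rank of FPKM the locus stood at 181 to 215 in R108, 232 to 462 in hsfa9-1 and 69 to 97 in hsfa9-2.

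R108 averaged 582 ± 42 FPKM of Medtr2g083160, hsfa9-1 averaged 451 ± 127 and hsfa9-2 averaged 1229.7 ± 111 (SD, n = 3 each). The log2 difference was -0.41 (SE 0.18) for hsfa9-1 against R108, a ratio of 0.776. It was -0.15 without hsfa9-1 replicate 2. For hsfa9-2 against R108 it was 1.08 (SE 0.18), a ratio of 2.11, and 1.00 without hsfa9-2 replicate 1. The mutants differed by 1.48 (SE 0.18), a ratio of 2.72, and by 1.41 without that library.

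**Figure D1:**
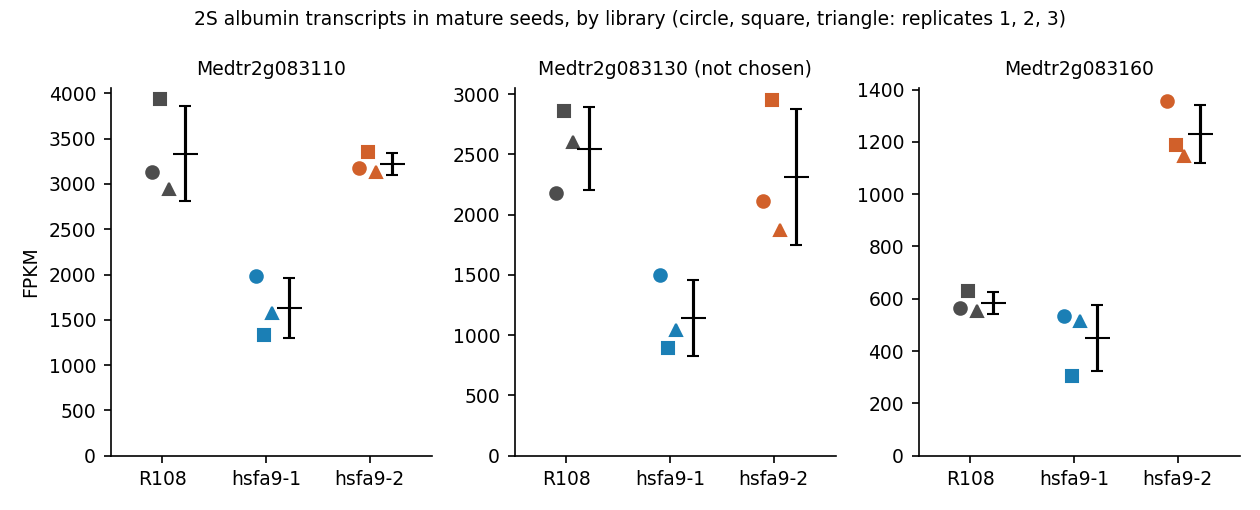
FPKM (vertical axis, linear, from 0) of the 3 2S albumin loci in each library of R108, hsfa9-1 and hsfa9-2; symbols mark replicates 1, 2 and 3, and bars the mean and SD (n = 3). Medtr2g083110 and Medtr2g083130 have their lowest levels in hsfa9-1 (means 1631 and 1146 FPKM), whereas Medtr2g083160 is highest in hsfa9-2 (mean 1229.7 FPKM).

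With limma and a threshold of 0.05 on the adjusted p over 17508 tested loci, 1 of the 2 loci (Medtr2g083110, lower) passed in hsfa9-1 against R108, where 59.5% of all tested loci passed, 27.6% of them all being called higher and 31.9% lower. In hsfa9-2 against R108, 1 of 2 (Medtr2g083160, higher) passed beside 62.3% of all loci, 25.8% being called higher and 36.5% lower. Between the mutants both were called higher in hsfa9-2, where 1.12% of loci were called with 0.491% higher and 0.628% lower. Medtr2g083110 and Medtr2g083160 ranked 75th and 37th by p in that comparison. Groups that do not overlap were likewise common against R108: 36.1% of loci had every hsfa9-1 library below R108 and 27.8% every hsfa9-2 library above it. Between the mutants, 5.57% of loci had every hsfa9-2 library above hsfa9-1. The loci were chosen on these values, so the counts and ranks by p only show where they stand, and no test is read from them. Of the 196 loci that differed between the mutants, 86 were higher and 110 lower in hsfa9-2, a split of 114 to 78 after centring each library on its median.

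Medtr2g083130 lies just outside the threshold between the mutants and has the same description. Its FPKM was 2179, 2858 and 2606 in R108, 1501, 896 and 1041 in hsfa9-1, and 2110, 2949 and 1876 in hsfa9-2. Groups were arranged as for Medtr2g083110, with all hsfa9-1 libraries lowest and R108 and hsfa9-2 overlapping. Means were 2548 ± 343, 1146 ± 316 and 2312 ± 564 FPKM (SD, n = 3 each). The log2 differences were -1.18 (SE 0.21) for hsfa9-1 against R108, -0.16 (SE 0.21) for hsfa9-2 against R108 and 1.02 (SE 0.21) between the mutants. The adjusted p of the last was 0.0501, and it ran from 0.024 (without hsfa9-1 replicate 1) to 0.182 (without hsfa9-1 replicate 2) over 17 alternatives, of which 3 passed. Without hsfa9-2 replicate 1 the difference was 1.07 (adjusted p = 0.0593).

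As a pool, 2S albumin transcripts of all 3 loci summed to 6466 ± 836 FPKM in R108, fewer in hsfa9-1 (3228 ± 747) and 6763 ± 678 in hsfa9-2 (SD, n = 3). The chosen pair made up 0.412% ± 0.0553 of all listed FPKM in R108, 0.222% ± 0.0463 in hsfa9-1 libraries and 0.462% ± 0.0191 in those of hsfa9-2. Summed levels of R108 and hsfa9-2 overlapped, while the composition of the pool differed. Medtr2g083160 supplied 9.04% ± 0.547 of it in R108, 13.9% ± 2.29 in hsfa9-1 and 18.3% ± 2.29 in hsfa9-2. Without hsfa9-2 replicate 1, the hsfa9-2 means were 6820.4 FPKM for the pool and 17.2% for this share.

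Within single libraries, the ratio of Medtr2g083160 to Medtr2g083110 was 0.18, 0.16 and 0.188 in R108. It was 0.268, 0.229 and 0.328 in hsfa9-1, and 0.426, 0.354 and 0.366 in hsfa9-2. None of the 3 groups overlapped, also without hsfa9-2 replicate 1, which had the highest ratio, and both mutants lay above R108. Both loci were chosen on these values, so the separation of their ratio is a description. It was not set beside other pairs of loci. This ratio does not depend on the scaling of a library. The ratio of Medtr2g083130 to Medtr2g083110, in contrast, was 0.769 ± 0.102, 0.696 ± 0.0519 and 0.714 ± 0.147 (SD, n = 3), and the groups overlapped. With reads of 50 bases, fragments shared by close copies could have been divided between these loci in the authors' counting, and this was not tested.

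**Figure D2:**
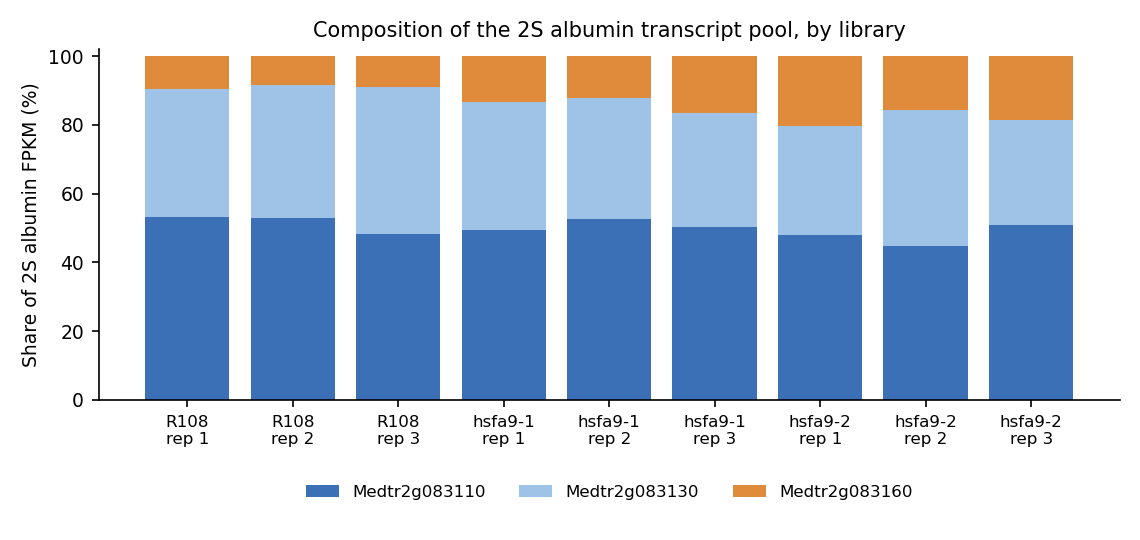
Share of 2S albumin FPKM (vertical axis, percent) that came from each of the 3 loci, in stacked bars, 1 bar for each of the 9 libraries. The top segment, Medtr2g083160, grows from 8.49–9.58% in the R108 libraries to 12.1–16.5% in hsfa9-1 and 15.9–20.4% in hsfa9-2.

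The 3 loci sit side by side. In the RefSeq gene table of assembly MtrunA17r5.0-ANR, to which they were matched by protein accession, they are consecutive genes on chromosome 2 (LOC11406378, LOC11407442 and LOC11413549). That assembly was used for names and order only, since the build behind the deposited values is not given in the sources used here. The gene before them, the gibberellin-inactivating enzyme gibberellin 2-beta-dioxygenase Medtr2g083030, was listed at 0 in every library. The gene after them, Medtr2g083180, encodes the translation initiation factor SUI1, which takes part in start codon selection. It fell from 3478 ± 53.4 FPKM in R108 to 1829 ± 69.1 in hsfa9-1 and 1771 ± 56.2 in hsfa9-2 (log2 differences -0.93 and -0.97, SE 0.06, adjusted p = 5.7e-07 and 3.82e-07). Between the mutants it differed by -0.05 (adjusted p = 0.766). The next gene, Medtr2g083200 for a DDRGK domain protein, rose from 83.3 ± 2.89 FPKM to 125 ± 8.35 and 130.3 ± 8.56 (0.58 and 0.64, adjusted p = 4.84e-05 and 2.28e-05) and differed between the mutants by 0.06 (adjusted p = 0.749). These differences between the mutants compare with 1.00 to 1.48 at the 3 2S albumin loci.

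The loci whose pattern over the 9 libraries was most like that of each 2S albumin locus differed between the pair. Likeness was Pearson's r of log2(FPKM + 1) over all tested loci with an informative description, and these libraries form 3 genotypes, so r mainly reflects the 3 group levels. Differences between the genotypes at loci chosen this way are a description. For Medtr2g083110 the closest was Medtr2g083130 (r = 0.95, Spearman's rho = 0.87), ahead of a glycerol-3-phosphate transporter, Medtr0004s0650 (r = 0.94), and the fatty acid oxidising alpha-dioxygenase Medtr6g007770 (r = 0.93). A sieve element occlusion protein, Medtr1g075153 (r = 0.93), and the RNA exosome subunit RRP41, Medtr2g019210 (r = 0.92), completed the 5. The alpha-dioxygenase stood at 44.2 ± 2.33 FPKM in R108, 18.2 ± 1.62 in hsfa9-1 libraries and 33.1 ± 2.4 in those of hsfa9-2, a difference of 0.83 (SE 0.08) between the mutants.

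For Medtr2g083160, 3 of the closest 5 were 11S globulins: legumin A2 Medtr7g096990 (r = 0.97, rho = 0.97), glycinin G4 Medtr1g072610 (r = 0.94) and a legumin, Medtr1g072630 (r = 0.93). The others were a Bowman-Birk trypsin inhibitor, Medtr7g077215 (r = 0.95), from a family of small cysteine-rich protease inhibitors of legume seeds, and a glycosyl hydrolase of family 47, Medtr4g106370 (r = 0.92). The inhibitor had 19.8 ± 2.08 FPKM in R108, 13 ± 3.65 in hsfa9-1 libraries and 38.9 ± 6.86 in those of hsfa9-2, a difference of 1.53 (SE 0.18) between the mutants. Medtr2g083110 and Medtr2g083160 themselves had r = 0.69 and rho = 0.85.

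**Figure D3:**
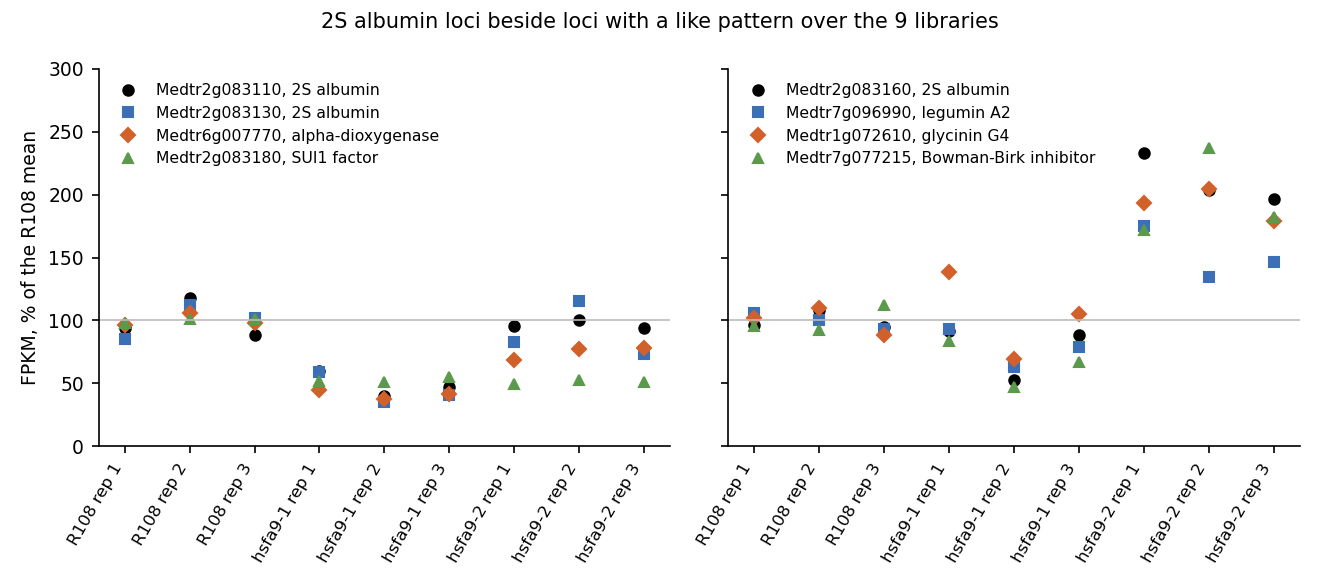
FPKM in each library as a percentage of the R108 mean (vertical axis, linear) for Medtr2g083110 with Medtr2g083130, an alpha-dioxygenase and the neighbouring SUI1 gene (left), and for Medtr2g083160 with a legumin A2, a glycinin G4 and a Bowman-Birk inhibitor (right); the grey line marks 100%. Medtr2g083110 is at 39.9–59.5% in hsfa9-1 and 93.8–101% in hsfa9-2, and Medtr2g083160 at 52.5–91.5% and 197–233%.

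Among the other storage proteins, each of the 6 tested 11S globulins and each of the 6 tested 7S globulins had a higher mean in hsfa9-2 than in hsfa9-1. Of the 11S globulins 1 of 6 passed the test (higher in hsfa9-2; median 0.81), and 5 of 6 did without hsfa9-1 replicate 1. Of the 7S globulins 2 of 6 passed (both higher; median 0.53), of which Medtr7g079820 (0.62, SE 0.11, adjusted p = 0.0357) passed in only 6 of 17 alternatives and not without hsfa9-2 replicate 1 (adjusted p = 0.0519, in a range of 0.0137 to 0.114). Over all tested loci 1.12% were called between the mutants, and the median difference was -0.05. Against R108 the 11S list had 1 locus higher and 2 lower in hsfa9-1 (median -0.14) and 5 higher and 1 lower in hsfa9-2 (median 0.72), beside medians over all loci of -0.04 and -0.10. The 7S list had 3 higher and 1 lower in hsfa9-1 (median 0.37) and 5 higher and 1 lower in hsfa9-2 (median 0.90). Over all tested loci 27.6% were called higher and 31.9% lower in hsfa9-1, and 25.8% and 36.5% in hsfa9-2.

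The legumin A2 Medtr7g096990 had 2748 ± 177 FPKM in R108, 2158 ± 412 in hsfa9-1 libraries and 4179 ± 568 in those of hsfa9-2. Between the mutants it was higher in hsfa9-2 by 0.96 (SE 0.14, adjusted p = 0.00901). The second legumin A2, Medtr7g097000, had the highest mean of the 11S globulins over the 9 libraries and fell in both mutants, from 6379.7 ± 351 FPKM to 3006 ± 972 and 3958 ± 396 (-1.13 and -0.69, adjusted p = 0.000315 and 0.00665). Its difference between the mutants was 0.44 (adjusted p = 0.301, and 0.024 without hsfa9-1 replicate 1, the lowest of a range that reached 0.601). Glycinin G4 Medtr1g072610 stood at 239 ± 25.5, 249 ± 83.1 and 459.7 ± 30.3 FPKM and rose in hsfa9-2 against R108 (0.94, SE 0.20, adjusted p = 0.00199). Medtr7g096990 and Medtr1g072610 are also among the loci most like Medtr2g083160, so their tests are no independent support for its pattern.

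Vicilin transcripts did not share a single order. Vicilin Medtr1g103400 fell from 1044 ± 144 FPKM in R108 to 309.8 ± 44.7 in hsfa9-1 and 598 ± 77.4 in hsfa9-2 (-1.75 and -0.80, SE 0.14, adjusted p = 1.67e-06 and 0.000461), and was higher in hsfa9-2 than in hsfa9-1 (0.95, adjusted p = 0.00848). Vicilin Medtr7g079770 rose in both mutants, from 303 ± 21.5 to 872 ± 65.8 and 923 ± 80 FPKM (1.52 and 1.60, adjusted p = 1.91e-07 and 1.26e-07), with a difference of 0.08 between them (adjusted p = 0.703). As shares of summed 2S, 7S and 11S FPKM, the 2S albumins held 34.4% ± 2.23 in R108, 27.5% ± 0.424 in hsfa9-1 and 34.2% ± 3.04 in hsfa9-2. Legumins (11S) held 57.8% ± 1.2, 60.4% ± 2.06 and 56.8% ± 3.12, and vicilins (7S) held 7.84% ± 1.03, 12.1% ± 2.28 and 9.02% ± 0.734 (SD, n = 3). Replicate 2 of hsfa9-1, which had the lowest level of each 2S albumin locus, also had the lowest 11S sum of the series (5587 FPKM, beside 9093 and 6671 in the other hsfa9-1 libraries).

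Of 24 further loci described as albumin, only 4 passed the filter of 1 FPKM in at least 3 libraries, and 3 were at 0 in all libraries. These are albumin I, a small cysteine-rich seed peptide family known from pea, and albumin-2, a distinct seed albumin. Albumin I Medtr3g067510 rose from 28.5 ± 3.91 FPKM in R108 to 46.1 ± 11.3 in hsfa9-1 and 78 ± 10 in hsfa9-2 (0.65 and 1.42, SE 0.17, adjusted p = 0.00782 and 4.29e-05). Albumin I Medtr3g067580 had 60.5 ± 11.7, 83.1 ± 18.5 and 156 ± 26.7 FPKM and rose in hsfa9-2 (1.36, SE 0.19, adjusted p = 0.000118). Between the mutants none of the 4 passed (2 had an unadjusted p under 0.05 in limma), with a median difference of 0.49 and all 4 means higher in hsfa9-2. The share of all tested loci at an unadjusted p under 0.05 is not given. Such counts, here and below, are therefore not read as an excess. Medtr3g067580 (0.92, adjusted p = 0.0554) passed in 3 of 17 alternatives: median centring, rescaling to the same total FPKM, and without R108 replicate 1. Its adjusted p ran from 0.04 to 0.174.

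Many transcripts listed for folding in the endoplasmic reticulum and for vacuolar sorting were lower in both mutants than in R108. Those listed for storage protein processing did not share a direction. The lists were matched by words, so their loci need not act on storage proteins. Of 19 tested loci for disulfide formation and folding in the endoplasmic reticulum, 16 fell in hsfa9-1 and 16 in hsfa9-2 against R108 and none rose (medians -0.85 and -0.86), except that 1 rose in hsfa9-1 after median centring and after rescaling to the same total FPKM. Over all tested loci 31.9% and 36.5% were called lower. Between the mutants, where 1.12% of all tested loci were called, 0 of 19 passed in limma, with 2 at an unadjusted p under 0.05 and a median of -0.10. Calreticulin Medtr1g083960, a calcium-binding chaperone, fell from 324 ± 12.5 FPKM to 96.7 ± 4.22 and 88.7 ± 4.65 (-1.74 and -1.86, SE 0.06, adjusted p = 1.14e-08 and 7.17e-09). Endoplasmic oxidoreductin Medtr2g048900, which supplies disulfide bonds, fell from 39.9 ± 3.65 to 22 ± 0.129 and 26.5 ± 1.36 FPKM (-0.83 and -0.57, adjusted p = 5.35e-06 and 7.95e-05).

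Of 32 vacuolar sorting loci, 4 rose and 23 fell in hsfa9-1, and 4 rose and 21 fell in hsfa9-2 (median -0.41 in both). Over all tested loci 27.6% rose and 31.9% fell in hsfa9-1, and 25.8% and 36.5% in hsfa9-2. Between the mutants, where 1.12% of all tested loci were called, 0 of 32 passed, with 4 at an unadjusted p under 0.05. The vacuolar processing enzyme Medtr4g101730, of the protease family that cuts storage protein precursors, fell from 2159 ± 42.4 FPKM to 1389 ± 9.5 and 1329 ± 61.1 (-0.64 and -0.70, SE 0.06, adjusted p = 7.85e-06 and 3.45e-06). Between the mutants it differed by -0.06 (adjusted p = 0.656). Of the 3 tested storage protein processing loci, 1 rose and 1 fell in hsfa9-1, and 2 rose and 1 fell in hsfa9-2 (medians 0.10 and 0.23). A second vacuolar processing enzyme, Medtr3g104120, was among those that rose in hsfa9-2 (0.23, adjusted p = 0.00279).

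A list matched by words for the supply of cysteine and methionine had 36 tested loci. Of these, 19 rose and 7 fell in hsfa9-1, and 19 rose and 9 fell in hsfa9-2 (median 0.24 in both). Over all tested loci 27.6% rose and 31.9% fell in hsfa9-1, and 25.8% and 36.5% in hsfa9-2. The words also matched loci outside this supply, such as the S-adenosylmethionine synthase-like Medtr7g110310, the most abundant of the list. It fell from 1076 ± 43.4 FPKM to 878 ± 41.3 and 796 ± 86.9 (-0.29 and -0.44, adjusted p = 0.0122 and 0.00107). Between the mutants 0 of 36 passed in limma, with 6 at an unadjusted p under 0.05 and 1 passing without hsfa9-2 replicate 1. Serine acetyltransferase Medtr5g095470, which makes the precursor of cysteine, rose from 3.13 ± 1.33 FPKM to 11.4 ± 3.36 and 6.72 ± 0.796 (1.60 and 0.94, adjusted p = 0.000186 and 0.00539). The most abundant riser, Medtr5g076080, is matched through the name of a cystathionine beta-synthase domain family, whose members are often not enzymes of this pathway; it rose from 133 ± 9.22 to 426 ± 20.4 and 455 ± 40.1 FPKM (1.67 and 1.77, adjusted p = 6.46e-08 and 4.48e-08).

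Lipid transfer proteins, which share the cysteine-rich fold family of 2S albumins, numbered 35 tested loci. Of these, 16 rose and 9 fell in hsfa9-1, and 17 rose and 12 fell in hsfa9-2. Over all tested loci 27.6% rose and 31.9% fell in hsfa9-1, and 25.8% and 36.5% in hsfa9-2. Between the mutants 1.12% of all tested loci were called. Between the mutants 1 passed, Medtr5g012380, which was listed at 0 in every R108 library and had 4.62 ± 0.483 FPKM in hsfa9-1 and 10.4 ± 1.82 in hsfa9-2 (1.02, SE 0.13, adjusted p = 0.00544). Without hsfa9-2 replicate 1, 2 passed, the other being Medtr3g082100, which was lower in hsfa9-2 (-0.81, adjusted p = 0.0261).

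In other seed maturation groups, counts between the mutants were near the 1.12% of all tested loci. There, 0 of 8 oil body loci (1 at an unadjusted p under 0.05) and 0 of 59 LEA proteins and dehydrins (11) passed in limma. The unadjusted counts have no share over all tested loci beside them. The list of regulators of seed maturation genes was matched by family words such as bZIP, so its loci need not all act in seed maturation. Of its 67 tested loci 1 passed, the bZIP factor Medtr8g028150 (-0.29, SE 0.06, adjusted p = 0.0489). That locus passed in only 1 of 17 alternatives (adjusted p from 0.045 to 0.202), and not without hsfa9-2 replicate 1 (adjusted p = 0.0586). Against R108, 23 loci of this list rose and 25 fell in hsfa9-1, and 20 rose and 30 fell in hsfa9-2. Over all tested loci 59.5% and 62.3% were called. The balance in the list turned with median centring (24 and 22, and 25 and 23).

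**Figure D4:**
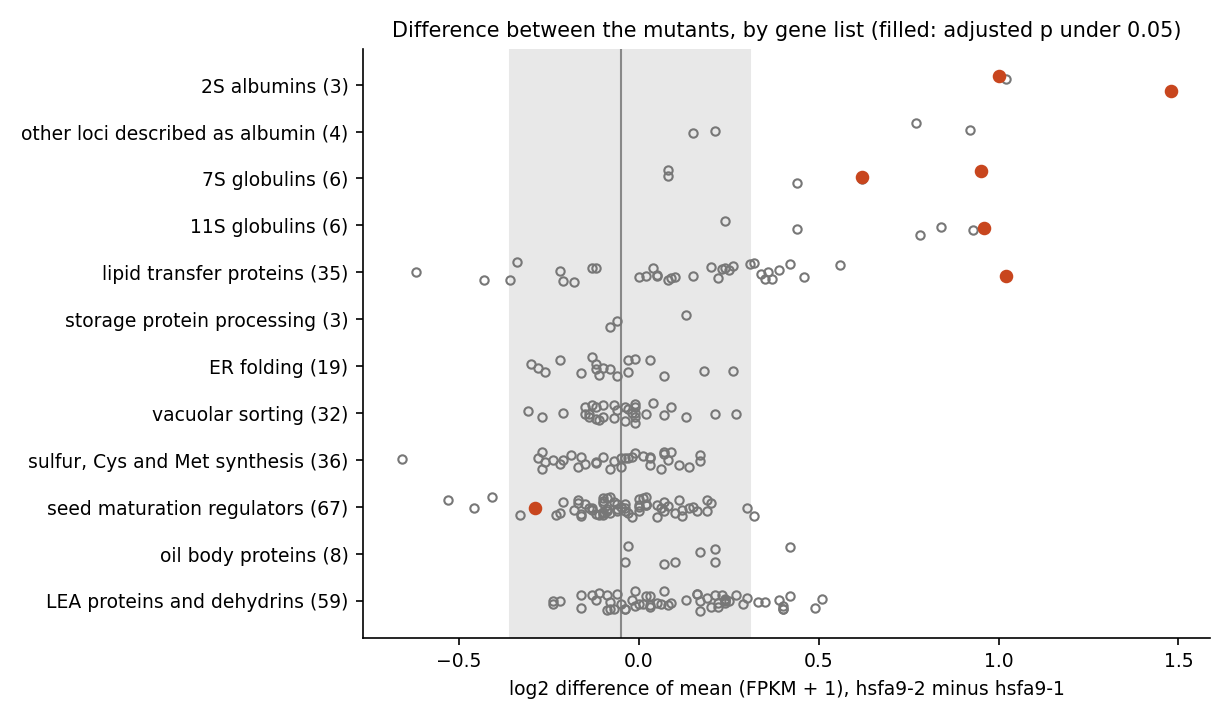
Difference of mean log2(FPKM + 1) between hsfa9-2 and hsfa9-1 (horizontal axis) for each tested locus, by gene list, with the number of loci in brackets; filled points passed an adjusted p of 0.05, the grey band holds the middle of all tested loci from the 5th (-0.36) to the 95th percentile (0.31), and the line is their median (-0.05). The 2S albumins lie between 1.00 and 1.48, and the folding and vacuolar sorting loci all lie between -0.31 and 0.27.

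Summed levels of marker lists of other tissues differed between R108 and the mutants, while their counts of called loci are to be read beside the 59.5% and 62.3% of all tested loci. Summed flavonoid synthesis transcripts, a seed coat marker, were at 1259–1431 FPKM in R108, 2624–2854 in hsfa9-1 libraries and 2914–3141 in those of hsfa9-2, with 16 loci higher and 20 lower of 47 in hsfa9-1 and 13 higher and 21 lower in hsfa9-2. Photosynthesis transcripts summed to 4756–5097, 3415–4084 and 3315–3542 FPKM, with 24 higher and 34 lower of 92, and 22 higher and 45 lower. Loci matched by nodule words, nodulin included, and listed as nodule-specific were meant to mark another organ. The words do not show where these loci are expressed. Their transcripts summed to 1219–1399.8, 2505–2827 and 2743–4344 FPKM, with 13 higher and 16 lower of 42 (16 and 15 after median centring), and 18 higher and 16 lower. Median differences from R108 in hsfa9-1 and hsfa9-2 were -0.00 and -0.19 for flavonoid synthesis, -0.17 and -0.45 for photosynthesis, and 0.03 and 0.10 for nodule-specific loci. In the 3 lists 11, 11 and 18 loci were at 0 in all libraries. Between the mutants 0 of 47 flavonoid loci (9 at an unadjusted p under 0.05) and 0 of 92 photosynthesis loci (25) passed in limma. Of 42 nodule-specific loci 1 passed, beside 1.12% of all tested loci. Without hsfa9-1 replicate 1, 4 photosynthesis loci passed. The share of all tested loci at an unadjusted p under 0.05 is not given, so 9 and 25 are not read as an excess. The part of these 3 lists in the 2S albumin differences was not tested.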

How the data were processed

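The authors deposited FPKM values with 2 decimals for 42631 transcript models in 9 libraries. The labels' protocols state BGISEQ-500 reads of 50 bp, 24 M per library on average. RSEM, Bowtie2, HISAT and HISAT2 appear in the submitters' processing notes without version or role, and the build, annotation and counting method were not given in the sources used here. No counts were used, so no count test was run. FPKM values were summed per locus (36695, with several models for 4262). The 17508 loci that reached 1 FPKM in 3 or more libraries were tested as log2(FPKM + 1), which understates the change of low loci. All 9 libraries entered 1 limma 3.58.1 model (R 4.3.3, statmod 1.5.0) with trend and robust moderation, tested on simulated data; p-values were adjusted by Benjamini-Hochberg over the tested loci, with a threshold of 0.05. Seeds came from different plants, so p-values measure the spread between seed pools. Relative depth was read from ratios of low FPKM values, within a narrow window around equal depth.

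The members, the 15 word-based gene lists and the tests were chosen with earlier results of these data known. Named loci (78) are the 2S albumins, other albumins, loci with neighbouring IDs, the 2 lowest p-values between mutants and 2 most abundant loci per list, and the 5 loci most like each member; 55 matched RefSeq. Of these, the text gives those that bear on the 2S albumins. The alternatives were a pseudocount of 0.1, no filter, median centring, no trend or robust moderation, only the 6 libraries compared, a replicate block, only the most abundant model, rescaling each library to the same total FPKM, and leaving out each library. No sequences were used here.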

Additional observations from a re-analysis of the deposited data

Results flagged for a closer look

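Among the 78 named loci, 8 had unlike differences from R108 in the mutants, beside Medtr2g083110, for which R108 and hsfa9-2 overlapped. Named loci were picked in part by low p between the mutants. Of all 17508 tested loci, 196 (1.12%) were called between the mutants. Each of the 8 is given as hsfa9-2 minus hsfa9-1 on the log2(FPKM + 1) scale. The 2S albumin Medtr2g083160 differed by 1.48: every hsfa9-1 library lay below R108 and every hsfa9-2 library above it, and no test is read from this difference because the locus was chosen on these values. The Bowman-Birk inhibitor Medtr7g077215 (1.53) and legumin A2 Medtr7g096990 (0.96) were picked for a pattern like that of Medtr2g083160, so that lying below R108 in all hsfa9-1 libraries and above it in all hsfa9-2 libraries is a description. Vicilin Medtr1g103400 (0.95, adjusted p = 0.00848) was lower than R108 in both mutants, more so in hsfa9-1. Alpha-dioxygenase Medtr6g007770 (0.83), picked for its likeness to Medtr2g083110, had the same order. The lipid transfer protein Medtr5g012380 (1.02, adjusted p = 0.00544) was listed at 0 in R108 and was higher in hsfa9-2 than in hsfa9-1. Vicilin Medtr7g079820 (0.62, adjusted p = 0.0357) was higher than R108 in hsfa9-2 (0.88, adjusted p = 7.07e-05), and its difference in hsfa9-1 did not pass (0.26, adjusted p = 0.0721). The bZIP factor Medtr8g028150 differed by -0.29 (adjusted p = 0.0489), and only its hsfa9-2 libraries were clear of R108.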

How the results depend on the processing

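The 6 differences of the 2 chosen loci stayed within 1 SE or kept their direction under all alternatives. Keeping direction did not mean keeping size: Medtr2g083160 in hsfa9-1 against R108 moved from -0.41 (SE 0.18) to -0.15 without hsfa9-1 replicate 2. Leaving out a library gave -1.19 to -0.90, -0.12 to 0.08 and 0.86 to 1.15 for Medtr2g083110 (hsfa9-1 and hsfa9-2 against R108, then hsfa9-2 against hsfa9-1), and -0.55 to -0.15, 1.00 to 1.14 and 1.22 to 1.62 for Medtr2g083160. The hsfa9-1 level of Medtr2g083160 passed the threshold against R108 in 2 of 17 alternatives, without hsfa9-1 replicate 1 and without replicate 3. Both chosen loci were picked on their values, so no test is read from their calls under any alternative. The 196 loci called between the mutants became 126 with no filter, 104 with only the 6 libraries compared and 118 with only the most abundant model. Leaving out a library gave 83 (without hsfa9-1 replicate 2) to 321 (without hsfa9-2 replicate 1); the cause was not tested. Against R108, leaving out a library gave counts from 8982 to 10676 (hsfa9-1) and 9483 to 10747 (hsfa9-2), beside 10412 and 10902 with all. Median centring moved the split against R108 from 4828 higher and 5584 lower to 5531 and 4888 in hsfa9-1, and from 4511 and 6391 to 5634 and 5070 in hsfa9-2. Over all tested loci, same-numbered libraries did not deviate together (r from -0.125 to 0.096). A shared effect limited to some loci would not show in this r. A replicate block gave 10213, 10716 and 145 calls. Vicilin Medtr7g079820 passed between the mutants in 6 of 17 alternatives, and legumin A2 Medtr7g096990 against R108 in hsfa9-1 in 6 of 17. Leaving out a library gave 0 or 1 oil body and flavonoid loci and 0 to 2 nodule-specific loci called between the mutants. List counts moved by less than 1.5 times in 717 of 765 alternatives. The absolute depth is unknown, which limits what can be said of loci near 0.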
